A study of Marchantia polymorpha with 12 samples.

Results

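MpMTPSL2 and MpCPT5 are neighbouring genes of the liverwort Marchantia polymorpha, and they lie in a run of 6 gene rows numbered Mp3g18470 to Mp3g18520 on chromosome 3. The run was taken by identifier number from 19441 gene rows, and the same 6 rows are in the antisense tables. The members were chosen by their fold changes, as a run of genes that were higher in both double mutants than in their controls, so that contrast describes them here and carries no test. Only these 2 members have a symbol: MpMTPSL2 is Mp3g18500 and MpCPT5 is Mp3g18510. Mp3g18470, Mp3g18480, Mp3g18490 and Mp3g18520 are named by number, and no function is given for them in the sources used here.

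The 12 libraries came from polyadenylated RNA of 14-day thalli and form 4 groups of 3 biological replicates, in 2 experimental sets. Set 1 holds the double mutant Mpknox2-1 Mpez1-1 and its Mpknox2-1 controls, and set 2 holds the double mutant Mpknox2-1 Mpez1-2 and Mpknox2-1 controls of its own. Every library carries Mpknox2-1, and no library without that allele was analysed here, so each comparison asks what an Mpez1 allele changed in an Mpknox2-1 background. Each of the 2 Mpez1 alleles is in 1 set, and the labels do not say how many plants or lines stand behind a library. Column headers of set 2 also carry the name Tak2, which those of set 1 do not. Allele, set and any difference of strain therefore cannot be told apart when the sets are compared.

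MpMTPSL genes encode microbial terpene synthase-like enzymes. Terpene synthases convert prenyl diphosphates, the common isoprenoid precursors, into terpenes; the microbial-type family is found in nonseed plants and resembles enzymes of bacteria and fungi. Liverworts store terpenes in the oil bodies of specialised cells. MpE(z)1, the gene hit by the Mpez1 alleles, encodes the catalytic subunit of Polycomb repressive complex 2 (PRC2), which places a methyl mark on histone H3 that is associated with silent genes. The symbol CPT has no product in the reference table used, so no role is given to MpCPT5.

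The libraries held 7019900 to 12098548 gene counts. Levels are given as CPM, a gene's count as a share of its library on a fixed common total, scaled by library size and TMM factors over all 12 libraries, with the SD of n = 3 libraries. CPM takes no account of gene length, so values are compared within a gene and not between genes. MpE(z)1 (Mp5g18040, listed as MpCXC3) averaged 14.4 ± 1.96 CPM in Mpez1-1 and 30.2 ± 4.27 CPM in its controls, then 19.7 ± 1.56 CPM in Mpez1-2 and 35 ± 2.81 CPM in its controls. Its RNA was thus lower but still counted in both double mutants (log2 fold changes -1.06 and -0.78; edgeR adjusted p = 0.000608 and 3.36e-05). MpKNOX2 (Mp7g05320, listed as MpHD21) had 30 counts in Mpez1-1, 2 in its controls, 15 in Mpez1-2 and none in the controls of set 2. MpRBCS, a marker of photosynthetic tissue, was present in all groups, at 211 to 504 CPM in Mpez1-1 and 224 to 246 CPM in controls of set 1, and at 476 to 576 CPM in Mpez1-2 and 253 to 294 CPM in controls of set 2; its part in the members' values was not tested.

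The run as a whole was higher in both double mutants. Its 6 members summed to 129 ± 12.1 CPM in Mpez1-1 and 10.5 ± 2.08 CPM in the controls of set 1. In set 2 they summed to 86.2 ± 4.07 CPM in Mpez1-2 and 24 ± 2.99 CPM in controls. Each of the 6 members had every double mutant library above every control library in both sets, which is a pattern seen in 14.9% of the 12261 genes fitted in both sets (31.1% in set 1 and 22.5% in set 2), and which the choice of the run built in. The range of log2 fold changes over the members was 1.81 to 6.08 in set 1 with a median of 3.47, beside a median of -0.02 and a 95th percentile of 3.35 over all 12633 genes fitted. In set 2 the range was 1.46 to 5.10 with a median of 2.72, beside -0.00 and 2.36 over 12744 genes. At an edgeR adjusted p under 0.05, 26.5% of all genes were called higher in set 1, 20.4% in set 2 and 13.5% in both; these shares describe the table and are not read against the members.

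All 6 members passed the filter on low counts in both sets. On the control libraries alone 1 member would have passed in set 1 (Mp3g18520) and 3 in set 2 (MpMTPSL2, MpCPT5 and Mp3g18520), so the others entered the fits through the double mutants. The depth behind a control value is small for most members, at 1 to 15 counts per control library in set 1 for all but Mp3g18520. In these whole thalli, fewer cells of a type and less RNA per cell cannot be told apart.

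**Figure D1:**
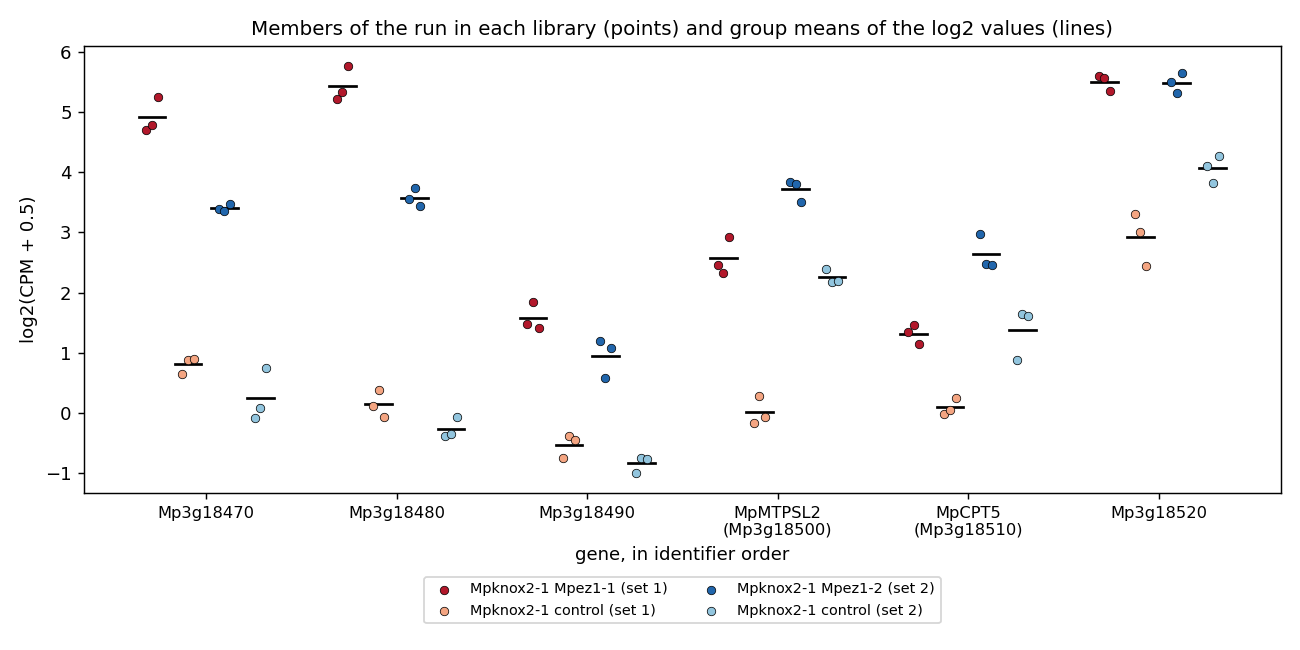
Level of each of the 6 members, as log2(CPM + 0.5), in each of the 12 libraries, with points for libraries and a line for the group mean of the log2 values, double mutants left of their controls within each set. The double mutant points lie above the control points of their set for every gene, and the control points of MpMTPSL2, MpCPT5 and Mp3g18520 lie higher in set 2 than in set 1.

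MpMTPSL2, the terpene synthase of the run, was higher in both double mutants, and its control level differed between the sets. It had 37, 38 and 46 counts in Mpez1-1 libraries, against 4, 8 and 4 in the controls of set 1. In set 2 it had 124, 136 and 114 counts in Mpez1-2 libraries, against 53, 43 and 45 in controls. The lowest Mpez1-2 library stood above every other group, while the controls of set 2 stood close to the Mpez1-1 libraries. In CPM these are 5.01, 4.5 and 7.09 in Mpez1-1, against 0.389, 0.713 and 0.458 in controls; and 13.8, 13.5 and 10.8 in Mpez1-2, against 4.73, 4.02 and 4.08 in controls. Group means were 5.53 ± 1.37 CPM in Mpez1-1 and 0.52 ± 0.17 CPM in controls of set 1, a ratio of 10.6. They were 12.7 ± 1.65 CPM in Mpez1-2 and 4.28 ± 0.396 CPM in controls of set 2, a ratio of 2.97. The higher level in a double mutant thus went with the smaller ratio: Mpez1-2 had more MpMTPSL2 RNA than Mpez1-1, over a control that already had more.

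MpCPT5, the next gene, shared the higher level in set 2 of both double mutant and control. It had 15, 19 and 11 counts in Mpez1-1, against 5, 6 and 6 in controls of set 1. It had 66, 51 and 53 counts in Mpez1-2, against 15, 28 and 28 in controls of set 2. The lowest control library of set 2, at 1.34 CPM, lay below the 3 Mpez1-1 libraries, at 1.7 to 2.25 CPM, and the other 2 lay above them. Means were 1.99 ± 0.28 CPM in Mpez1-1 and 0.569 ± 0.104 CPM in controls, then 5.81 ± 1.35 CPM in Mpez1-2 and 2.17 ± 0.716 CPM in controls. The ratio was 3.5 in set 1 and 2.68 in set 2.

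Mp3g18520, at the upper end of the numbers, was counted in every library. It had 356, 397 and 261 counts in Mpez1-1, against 97, 85 and 43 in controls of set 1. It had 402, 399 and 524 counts in Mpez1-2, against 187, 147 and 208 in controls of set 2. The double mutants averaged 45.2 ± 4.3 CPM in Mpez1-1 and 44.7 ± 5.1 CPM in Mpez1-2, whereas the controls were at 7.31 ± 2.27 CPM in set 1 and 16.4 ± 2.58 CPM in set 2. The ratio of double mutant over control was 6.18 in set 1 and 2.72 in set 2.

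The 3 members of lowest number behaved otherwise, with few control counts in both sets and the higher double mutant level in Mpez1-1. Mp3g18480 had 271, 336 and 349 counts in Mpez1-1, against 6, 9 and 4 in controls of set 1. It had 101, 130 and 109 counts in Mpez1-2, against 3, 3 and 5 in controls of set 2. Its means were 43.4 ± 9.11 CPM in Mpez1-1 and 0.614 ± 0.174 CPM in controls, a ratio of 70.7, and 11.5 ± 1.28 CPM in Mpez1-2 and 0.334 ± 0.104 CPM in controls, a ratio of 34.4. These are the highest ratios among the 6 members in both sets, with control means that rest on at most 9 counts per library.

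Mp3g18470 had 189, 228 and 243 counts in Mpez1-1, against 11, 15 and 12 in controls of set 1. In set 2 it had 89, 99 and 112 counts in Mpez1-2, against 5, 6 and 13 in controls. Means of 30 ± 6.48 CPM in Mpez1-1 and 1.26 ± 0.165 CPM in controls gave a ratio of 23.8, and means of 10.1 ± 0.439 CPM in Mpez1-2 and 0.729 ± 0.395 CPM in controls gave 13.9. The 3 Mpez1-2 libraries lay between the controls and the lowest Mpez1-1 library, which was at 25.6 CPM.

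Mp3g18490 was the member with the fewest counts. It had 17, 26 and 14 counts in Mpez1-1, against 1, 3 and 2 in controls of set 1, and 16, 10 and 17 counts in Mpez1-2, against 0, 1 and 1 in controls of set 2. The double mutant means were 2.51 ± 0.497 CPM in Mpez1-1 and 1.46 ± 0.419 CPM in Mpez1-2. With 43 counts in Mpez1-2 and 2 in its controls, the pooled ratio in set 2 was 23.9, with an exact 95% interval of 6.22 to 204 that covers counting error only. The size of this ratio is therefore known only loosely.

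In number order, the members' range of fold changes ends at the upper edge of the run but takes in the row below the lower edge. Mp3g18460, the row just below the lowest member, had 194, 237 and 296 counts in Mpez1-1, against 14, 14 and 9 in controls of set 1, and 129, 133 and 109 in Mpez1-2, against 4, 4 and 7 in controls of set 2. Its log2 fold changes of 4.75 and 4.80 lie within the members' range. The next row, Mp3g18450, went the other way, at 1.29 ± 0.205 CPM in Mpez1-1 and 3.84 ± 0.462 CPM in controls, and 7.61 ± 1.68 CPM in Mpez1-2 and 13.1 ± 1.43 CPM in controls. Mp3g18440 had small positive log2 fold changes of 0.39 and 0.59. Higher values were not confined to the run: Mp3g18400, farther below, had log2 fold changes of 4.47 and 3.56, and MpPAL-like1 (Mp3g18570), farther above, had 1.63 and 1.60 (both named after their values were seen). In the reference assembly Mp3g18470 stands before Mp3g18460, the reverse of their numbers, so the row left outside lies between 2 members there. The row next to Mp3g18470 is then Mp3g18450, so in that order the values change at the lower edge too.

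The 2 rows just above the run had smaller fold changes than every member in both sets. Mp3g18530, just outside, averaged 16.8 ± 3.84 CPM in Mpez1-1 and 5.3 ± 1.15 CPM in controls, and 16.1 ± 1.02 CPM in Mpez1-2 and 11.1 ± 0.47 CPM in controls (log2 fold changes 1.66 and 0.59). Mp3g18520, just inside, had 2.62 and 1.49 on the same scale, and MpCPT5, the lowest member, had 1.81 and 1.46. Mp3g18540 followed with 1.00 and 0.61, and Mp3g18550 had no count in any library. Farther out, MpCPT4 (Mp3g18560), another gene with the CPT symbol, had 2 counts in all Mpez1-1 libraries and none in controls of set 1, and 5 in all Mpez1-2 libraries and none in controls of set 2.

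**Figure D2:**
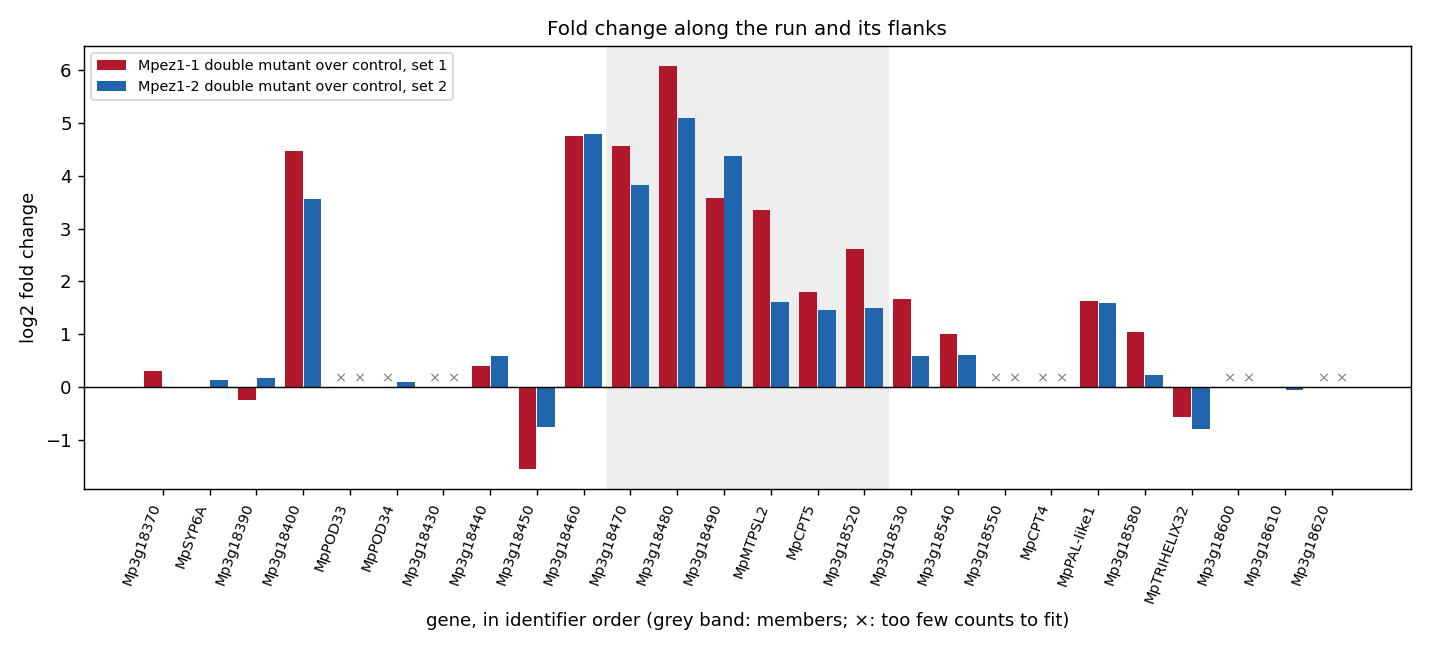
Log2 fold change of each double mutant over the controls of its set for the 6 members and the 10 gene rows on each side by number, in number order, with members in the grey band; bars stand for the fitted values and a cross marks a gene with too few counts to fit. The members and Mp3g18460 lie well above 0 in both sets; the smaller values of Mp3g18530 and Mp3g18540 follow above the run, and Mp3g18450 lies below 0 in both sets. Farther out, Mp3g18400 (4.47 and 3.56) and MpPAL-like1 (1.63 and 1.60) also lie above 0.

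Whether the 2 alleles gave equal fold changes was not part of how the run was chosen, and it was tested in a fit of all 12 libraries as the difference of effects, set 2 minus set 1. The fold change was smaller in set 2 for 2 of the 6 members, MpMTPSL2 and Mp3g18520, and larger for none; over all 13244 genes 12.3% were called lower and 10.7% higher, 23% in all. For MpMTPSL2 the difference was -1.78 on the log2 scale (SE 0.37; edgeR quasi-likelihood test, Benjamini-Hochberg adjusted p = 0.00407). For Mp3g18520 it was -1.17 (SE 0.25; edgeR adjusted p = 0.0055). The other 4 members gave no call, with differences of -0.79 for Mp3g18470 (SE 0.42), -1.03 for Mp3g18480 (SE 0.50), 0.73 for Mp3g18490 (SE 0.85) and -0.39 for MpCPT5 (SE 0.46), and edgeR adjusted p from 0.192 to 0.613. Equal fold changes were not shown for these 4, since their SEs are up to 0.85.

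The control groups differed for these 2 members and for MpCPT5. MpMTPSL2 was higher in the controls of set 2 than in those of set 1 by 2.99 on the log2 scale (SE 0.29; edgeR adjusted p = 1.75e-06), MpCPT5 by 1.91 (SE 0.36; edgeR adjusted p = 0.000596) and Mp3g18520 by 1.15 (SE 0.19; edgeR adjusted p = 0.000238). Mp3g18470, Mp3g18480 and Mp3g18490 had estimates below 0, at -0.78, -0.88 and -1.52, with edgeR adjusted p of 0.0774, 0.136 and 0.173. That makes 3 of 6 members higher and 0 lower in the controls of set 2, beside 27.9% higher and 27.1% lower of all genes. In either direction 55% of all genes were called, so the control groups differ across much of the transcriptome. Without replicate 3 of the set 2 controls, Mp3g18470 was at -1.30 (edgeR adjusted p = 0.0114).

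Between the double mutants the run split. Mpez1-2 was above Mpez1-1 for MpMTPSL2, by 1.21 on the log2 scale (SE 0.21; edgeR adjusted p = 0.000221), and for MpCPT5, by 1.53 (SE 0.30; edgeR adjusted p = 0.000575). It was below Mpez1-1 for Mp3g18470, at -1.56 (SE 0.19; edgeR adjusted p = 1.2e-05), and for Mp3g18480, at -1.92 (SE 0.16; edgeR adjusted p = 2.87e-07). Mp3g18490, at -0.79 (SE 0.37; edgeR adjusted p = 0.0775), and Mp3g18520, at -0.02 (SE 0.16; edgeR adjusted p = 0.934), gave no call. Over all genes 31.7% were called higher and 31% lower (62.7% in either direction), so 2 of 6 in each direction is near the share in the whole table. In number order the 2 higher genes are neighbours, and so are the 2 lower ones.

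The row just below and the 2 rows just above had the sign of the nearest members in the controls, while the second row below did not. Mp3g18450 was higher in set 2 both in controls, by 1.77 (SE 0.20; edgeR adjusted p = 5.92e-06), and in double mutants, by 2.54 (SE 0.24; edgeR adjusted p = 1.04e-06). Mp3g18460 was lower in set 2 both in controls, at -1.40 (SE 0.43; edgeR adjusted p = 0.0143), and in double mutants, at -1.40 (SE 0.20; edgeR adjusted p = 5.4e-05); without replicate 1 of the set 2 controls, its control difference had an edgeR adjusted p of 0.0527. Mp3g18530 was higher in the controls of set 2 by 1.05 (SE 0.19; edgeR adjusted p = 0.000338), its double mutants differed by -0.07 (edgeR adjusted p = 0.74), and its fold change was smaller in set 2 by a difference of -1.12 (SE 0.25; edgeR adjusted p = 0.00666). Mp3g18540 was higher in controls by 0.75 (SE 0.10; edgeR adjusted p = 1.98e-05) and in double mutants by 0.32 (SE 0.09; edgeR adjusted p = 0.0091), an estimate that was 0.22 (edgeR adjusted p = 0.0543) without replicate 3 of Mpez1-2. From Mp3g18460 on in number order, the rows to Mp3g18490 had control estimates below 0 and those from MpMTPSL2 to Mp3g18540 above 0.

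**Figure D3:**
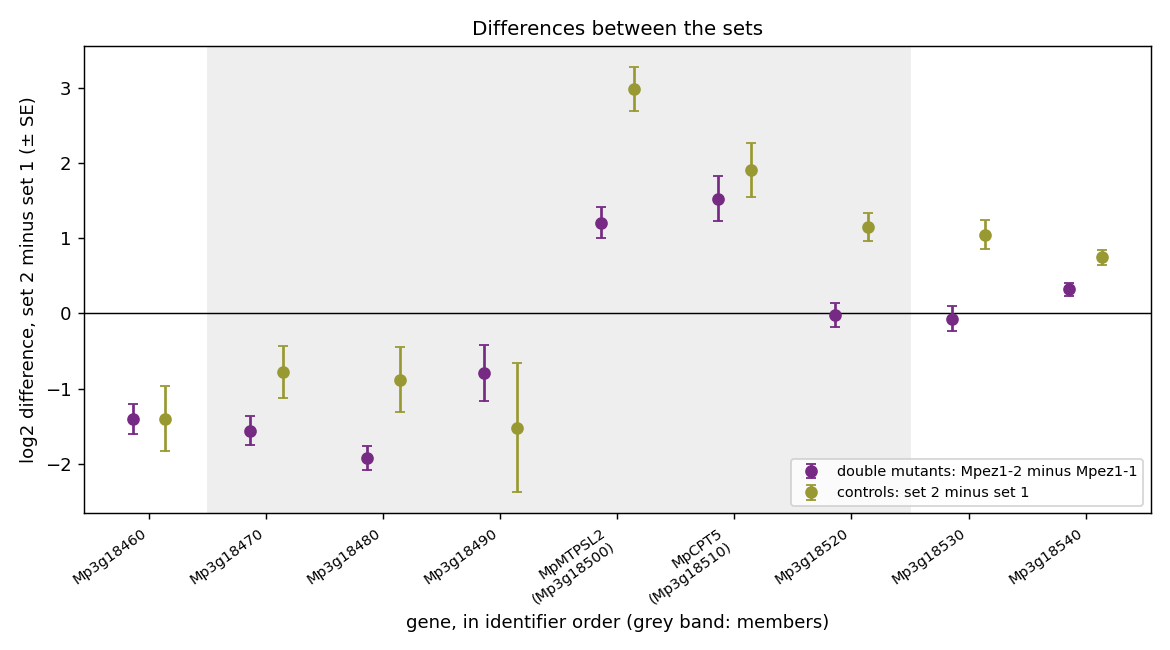
Log2 differences, set 2 minus set 1, between the double mutants and between the controls, for the 6 members (grey band) and for Mp3g18460, Mp3g18530 and Mp3g18540, with bars of ± SE. Control differences lie below 0 up to Mp3g18490 and above 0 from MpMTPSL2 on, with the largest at 2.99 for MpMTPSL2.

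The opposite strand of the run carried few counts. Over the 6 members the antisense tables held 40 counts in Mpez1-1, beside 2853 sense counts (1.38% of both), and 6 in controls of set 1, beside 321 (1.83%). In set 2 they held 20 in Mpez1-2, beside 2552 (0.778%), and 1 in controls, beside 791 (0.126%). Antisense counts thus were more numerous in each double mutant than in its controls. Controls of set 2 had more sense counts and fewer antisense counts than controls of set 1. That contrast rests on 1 and 6 antisense counts, 5 of the 6 from Mp3g18520, and was not tested. Mp3g18480 had 5, 7 and 3 antisense counts in Mpez1-1, against none in controls of set 1, and 2, 9 and 1 in Mpez1-2, against none in controls of set 2. Mp3g18520 had 9, 9 and 2 in Mpez1-1, against 4, 1 and 0 in controls of set 1, and 0, 1 and 2 in Mpez1-2, against none in controls of set 2. MpMTPSL2 and MpCPT5 had at most 1 antisense count in any library. No member passed the filter on low antisense counts in either set, while of the genes that did 14.2% were called higher and 5.59% lower in set 1 (19.8% in either direction), and 10.8% higher and 5.81% lower in set 2 (16.7%).

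Terpene synthases outside the run that had enough counts to test were mostly higher as well. The list holds 34 other genes with TPS, MTPSL or FTPSL symbols, of which 2 had no count in any library. In set 1, 15 of the 20 tested rose and 2 fell, beside 26.5% higher and 24.1% lower of all genes, with a median log2 fold change of 2.12 beside -0.02. In set 2, 9 of the 15 tested rose and 1 fell, beside 20.4% and 17.4%, with a median of 1.07 beside -0.00; 9 rose in both sets and none fell in both. Of the tested genes, 3 in set 1 and 1 in set 2 had no control count. They entered the fits through the double mutants and could only be called higher. Others had some control counts, but too few to pass the filter on the controls alone, and also entered through the double mutants. In both sets these were MpMTPSL23, with 2 control counts in each set, MpMTPSL5 and MpFTPSL10. In set 1 MpMTPSL19, MpMTPSL25 and MpMTPSL32 entered that way as well. All of them were called higher there, and all but MpMTPSL23 were named after their values were seen. The shares that rose are thus to a large extent built in by the filter, which acted on all genes. Both medians were the same with the genes without a control count set to their lower bound. These bounds lie above the medians, so that step could not have moved them. The genes that fell, named after their values were seen, were MpMTPSL1 (-0.53; edgeR adjusted p = 0.00907) and MpTPS5 (-2.11; edgeR adjusted p = 0.00175) in set 1 and MpFTPSL1 (-1.01; edgeR adjusted p = 0.0174) in set 2. MpFTPSL1 rose in set 1 (0.87; edgeR adjusted p = 0.0169), and its call in set 2 was lost, leaving 0 fallen, without replicate 3 of the controls or replicate 2 or 3 of Mpez1-2.

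The largest changes on that list came from genes near silence in controls. MpTPS6 had 92 counts over the Mpez1-1 libraries and 225 over the Mpez1-2 libraries, with none in the controls of either set, which puts it at least 41.6-fold higher in set 1 and at least 83.3-fold higher in set 2 against a floor of 3 counts over the control group. MpMTPSL23 had 574 counts in Mpez1-1 and 2 in controls, a pooled ratio of 389 (exact 95% interval 107 to 3219), and 147 in Mpez1-2 and 2 in controls, a ratio of 81.7 (22.2 to 681); both control counts of set 2 lie in 1 library. MpFTPSL8 rose in both sets, by 2.69 in set 1 (SE 0.42; edgeR adjusted p = 0.00149) and 2.67 in set 2 (SE 0.32; edgeR adjusted p = 7.83e-05). These 2 values for MpFTPSL8 lie between those of MpMTPSL2 in set 1, 3.35, and in set 2, 1.61.

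Of 5 other genes with the MpCPT symbol, 2 had enough counts to test and 1 rose. MpCPT6 averaged 6.24 ± 2.24 CPM in Mpez1-1 and 1.11 ± 0.213 CPM in controls, and 1.88 ± 0.275 CPM in Mpez1-2 and 0.458 ± 0.454 CPM in controls. It had 11, 15 and 8 counts in controls of set 1 and 0, 5 and 10 in controls of set 2. These are too few to pass the filter on the controls alone. MpCPT6 thus entered both fits through the double mutants, and its rise is in part built in by the filter. Its log2 fold changes were 2.47 (SE 0.35; edgeR adjusted p = 0.000701) and 2.06 (SE 0.61; edgeR adjusted p = 0.0173), the second with adjusted p of 0.0575, 0.0715 and 0.057 without replicate 2 of the controls, replicate 2 of Mpez1-2 and replicate 3 of Mpez1-2. MpCPT2 had log2 fold changes of 0.15 and -0.22 (edgeR adjusted p = 0.451 and 0.217). MpCPT3 had 1 or 2 counts in each group, MpCPT7 had none, and MpCPT4 is given above among the flanking rows. In the reference order MpCPT5 is 1 gene step from MpMTPSL2 and MpCPT4 is 6 steps from it, whereas MpCPT3, MpCPT6, MpCPT7 and MpCPT2 stand 23, 149, 209 and 316 steps from the nearest terpene synthase symbol.

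The list of isoprenoid genes holds enzymes that make the precursors and also squalene synthase and epoxidase symbols (SQS and SQE) of the sterol branch. Of 18 tested in each set, 5 rose and 1 fell in set 1 (median log2 fold change -0.01), beside 26.5% higher and 24.1% lower of all genes, so the share that rose is near that of the whole table. In set 2, 2 rose and 7 fell (median -0.20), beside 20.4% higher and 17.4% lower of all genes. MpSQE (-0.26, edgeR adjusted p = 0.0065) and MpSQS3 (-0.25, edgeR adjusted p = 0.0063), of the sterol branch, are among the 7. The others make precursors: MpDXS1 (-0.48), MpMVD (-0.47), MpDXR1 (-0.31), MpHDR (-0.30) and MpCMK (-0.29), with edgeR adjusted p from 2.14e-05 to 0.0356. MpDXR1 averaged 98 ± 5.31 CPM in Mpez1-2 and 126 ± 3.62 CPM in controls of set 2. All of the 7 but MpDXS1 were named after their values were seen. MpDXR2 and MpDXS2, named for enzymes of the plastid precursor pathway, rose in both sets. MpDXR2 rose by 1.54 in set 1 (edgeR adjusted p = 0.000659) and 0.87 in set 2 (edgeR adjusted p = 0.00245). MpDXS2 rose by 0.83 (edgeR adjusted p = 0.0143) and 0.69 (edgeR adjusted p = 0.00193), the first with adjusted p of 0.0607 without replicate 2 of the controls and 0.05 without replicate 1 of Mpez1-1. MpDXS1, of the same enzyme name as MpDXS2, fell in both, to 107 ± 20.3 CPM in Mpez1-1, against 196 ± 11.1 CPM in controls, and to 170 ± 5.14 CPM in Mpez1-2, against 245 ± 11.1 CPM in controls (edgeR adjusted p = 0.00112 and 2.14e-05).

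**Figure D4:**
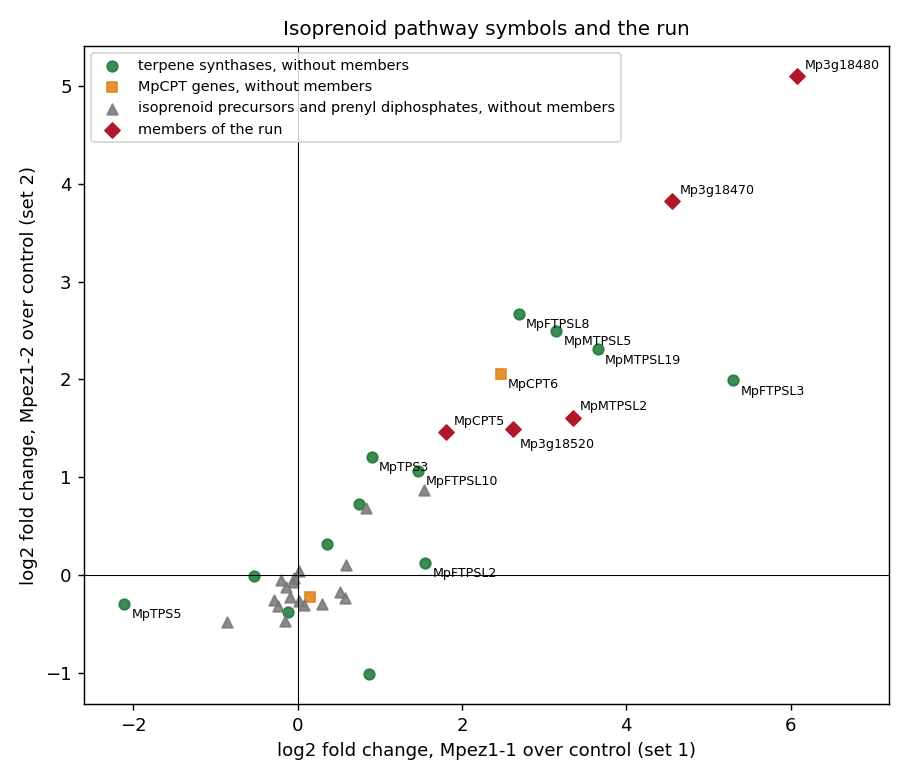
Log2 fold change of Mpez1-2 over control in set 2 (vertical) against that of Mpez1-1 over control in set 1 (horizontal) for genes with isoprenoid pathway symbols and for members of the run, drawn for genes fitted in both sets that had over 3 counts in each control group. Most genes of the precursor list lie near 0, while MpMTPSL2 (3.35 and 1.61) lies among the terpene synthases that rose.

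Most markers of oil body cells were higher in the double mutants too. All 6 markers were found and none was at 0, and their sum was 522 to 548 CPM in Mpez1-1 and 371 to 402 CPM in controls of set 1, and 232 to 245 CPM in Mpez1-2 and 198 to 221 CPM in controls of set 2. In set 1, 5 of 6 rose, beside 26.5% of all genes (median log2 fold change 0.93), among them MpC1HDZ, a regulator of oil body cell formation, by 0.80 (edgeR adjusted p = 0.000131), and MpSYP12B, a membrane fusion protein of the oil body, by 1.43 (edgeR adjusted p = 0.000431). In set 2, 4 of 6 rose, beside 20.4% of all genes (median 0.48), MpC1HDZ by 0.58 (edgeR adjusted p = 0.000561) and MpSYP12B by 0.59 (edgeR adjusted p = 0.0138). MpABCG1, an oil body transporter, rose by 1.06 and 0.44 (edgeR adjusted p = 0.00114 and 0.00962). MpR2R3-MYB2 rose by 1.22 in set 1 (edgeR adjusted p = 0.00105) but gave no call in set 2, at 0.15 (edgeR adjusted p = 0.469). MpBZIP8, the marker MpTGA, gave no call in either set, at 0.10 and 0.05 (edgeR adjusted p = 0.427 and 0.601). The set 2 calls of MpSYP12B and MpABCG1 had adjusted p of 0.0837 and 0.0578 without replicate 3 of Mpez1-2, and MpERF13, counted among the risen at edgeR adjusted p of 0.0423 and 0.0487, lost its call in 7 of 12 alternatives in set 1 and 9 of 12 in set 2. Between the sets the markers differed in both directions. In the controls of set 2, 4 of 6 were higher than in those of set 1: MpR2R3-MYB2 by 1.40, MpABCG1 by 1.16, MpSYP12B by 0.58 and MpERF13 by 0.56 (edgeR adjusted p from 5.71e-06 to 0.0419). MpC1HDZ and MpBZIP8, which make up most of the sum, were lower there, at -1.84 and -0.83 (edgeR adjusted p = 4.92e-09 and 2.42e-06). Beside these, 27.9% of all genes were called higher and 27.1% lower between the control groups, 55% in either direction. The markers' part in the members' values was not tested.

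The other marker lists moved in both directions. Sporophyte markers, of which 5 of 7 were found, summed to 10.7 to 12.6 CPM in Mpez1-1 and 3.21 to 3.74 CPM in controls of set 1, and to 9.1 to 14.2 CPM in Mpez1-2 and 1.68 to 2.86 CPM in controls of set 2. The largest part in the double mutants was MpBELL1, at 5.64 CPM in Mpez1-1 and 6.6 CPM in Mpez1-2. Its controls were at 0.526 CPM in set 1 and 0.182 CPM in set 2. MpKNOX1 (listed as MpHD20) had 7 counts in Mpez1-1 and 23 in its controls, then 25 in Mpez1-2 and 17 in its controls. Both were named after their values were seen. Gametangium and germ cell markers, all 5 found, summed to 54.4 to 70.4 CPM in Mpez1-1 and 71.2 to 73.9 CPM in controls, and to 89.8 to 103 CPM in Mpez1-2 and 118 to 120 CPM in controls. That sum is mostly MpRKD, which averaged 47.8 CPM in Mpez1-1 and 66 CPM in controls, and 89.5 CPM in Mpez1-2 and 113 CPM in controls. Other markers of the list differed from it: MpBNB (listed as MpBHLH20) had 46 counts in Mpez1-1 and 28 in Mpez1-2, with none in the controls of either set, and MpGCS1 averaged 8.64 CPM in Mpez1-1 and 3.49 CPM in controls, and 3.43 CPM in Mpez1-2 and 3.47 CPM in controls. The gemma cup sum was 32.2 to 47.9 CPM in Mpez1-1 and 44.2 to 56.3 CPM in controls of set 1. In set 2 it was 29.9 to 36 CPM in Mpez1-2 and 41.5 to 48.2 CPM in controls. On average MpKAR was lower and MpGCAM1 higher in both double mutants. The air pore marker MpNOP1 averaged 58.6 CPM in Mpez1-1 and 60.7 CPM in controls, and 48.3 CPM in Mpez1-2 and 68.1 CPM in controls. The rhizoid marker MpRSL1 was lower on average in both double mutants. The part of these lists in the members' values was not tested either.

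The genes whose levels ran most like MpMTPSL2 lay elsewhere in the genome. Likeness was measured as the root mean square difference of log2(CPM + 0.5) over the 12 libraries after centring each gene, among 13238 genes. The closest were Mp3g08380 and Mp6g19530 at 0.33, Mp2g15200 at 0.38, and MpGST16 and MpPOD88 at 0.40, beside a median of 1.41 over all genes. Being chosen for likeness over all 12 libraries, they share the step between the control groups by construction. Mp6g19530, for example, averaged 5.47 ± 1.82 CPM in Mpez1-1 and 0.661 ± 0.0681 CPM in controls, and 12.4 ± 2.1 CPM in Mpez1-2 and 2.7 ± 0.479 CPM in controls. Within the run, MpCPT5 stood at 0.61 (rank 54) and Mp3g18520 at 0.65 (rank 79), and Mp3g18490, Mp3g18470 and Mp3g18480 at 1.14, 1.60 and 1.92.

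MpCPT5 had its own closest genes, Mp1g02200 at 0.31, MpPOD149 and Mp2g03300 at 0.33, and Mp4g10560 and Mp6g20430 at 0.34, beside a median of 1.00, with MpMTPSL2 at rank 370. MpPOD149 averaged 6.66 ± 1.31 CPM in Mpez1-1 and 3.34 ± 1.25 CPM in controls, and 17.7 ± 1.53 CPM in Mpez1-2 and 6.26 ± 1.63 CPM in controls. At the other end of the run, Mp3g18470 was at 0.30 from the flanking Mp3g18460 (rank 3) and at 0.52 from Mp3g18480, both nearer than MpMTPSL2, at 1.60. By this measure the members form no single profile. The points of each profile share libraries and depth, and the measure says nothing of shared function or control.

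**Figure D5:**
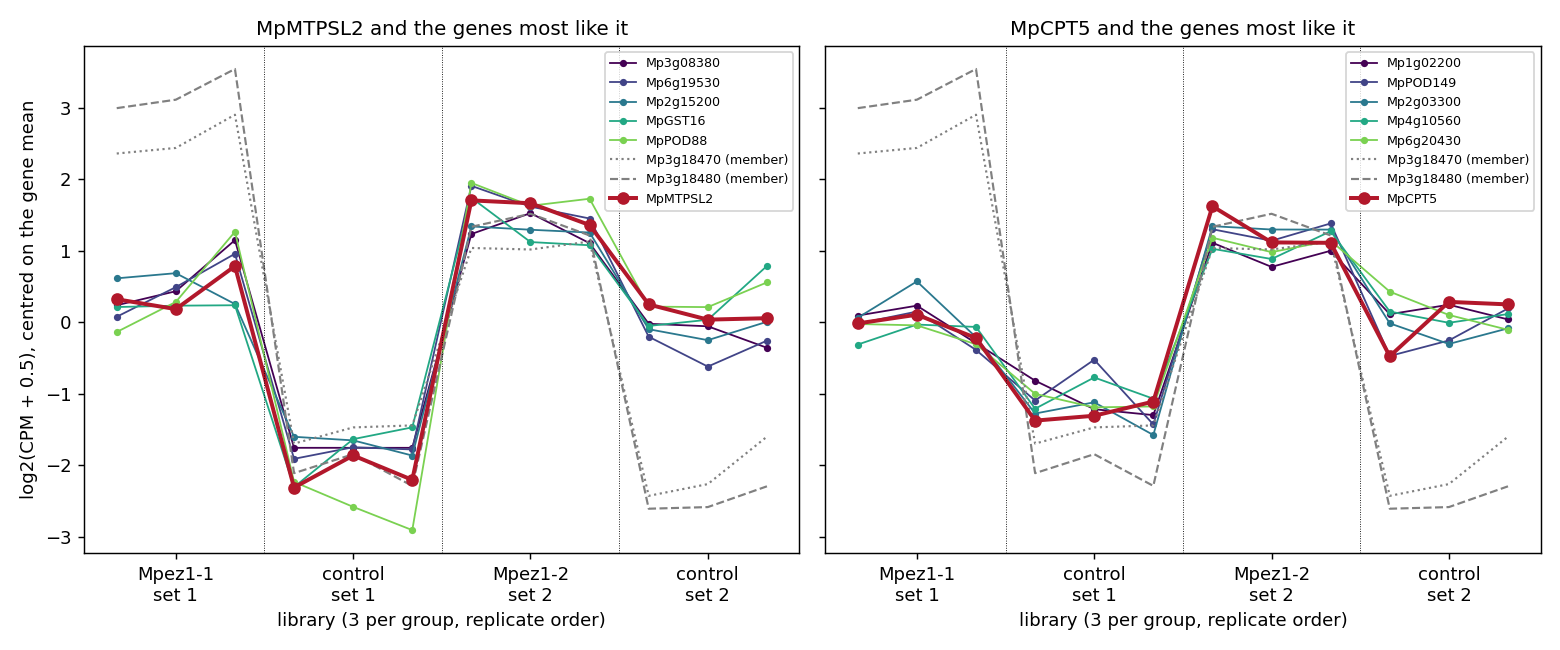
Log2(CPM + 0.5), centred on each gene's mean, in the 12 libraries for MpMTPSL2 (left) and MpCPT5 (right), each in red with the 5 genes most like it and, in grey, Mp3g18470 and Mp3g18480. MpMTPSL2 and its closest genes are on average lowest in the controls of set 1 and highest in Mpez1-2, while Mp3g18470 and Mp3g18480 have their highest in Mpez1-1.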

How the data were processed

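Polyadenylated RNA of 12 libraries was sequenced after a directional library preparation, per the labels' protocols. The submitters' processing notes name Trim Galore and STAR, without versions. How multi-mapping reads were counted, with which tool and on which build, is not stated in the labels or headers. The authors deposited raw counts for 19441 genes and 89262 transposable element (TE) copies, in 2 tables per library and 24 in all. The second tables were read as the opposite strand from their naming and gene sums (1.66% to 2.17% of gene counts). Close paralogs of terpene synthases may share or lose reads in the authors' counting.

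The main test was the quasi-likelihood test of edgeR 4.0.16 (run in R 4.3.3; robust glmQLFit; filterByExpr with a minimum count of 10 and total of 15; TMM over genes and TE copies; Benjamini-Hochberg over genes; threshold 0.05). Each double mutant was fitted with its own controls in 6 libraries; comparisons between sets came from a fit of 12. SEs were derived from the quasi-likelihood F statistic. DESeq2 1.42.0, other scaling, no filter, a replicate block and leaving out each library were alternatives, and member levels under other scaling were added after seeing the data. Code was tested on simulated data. Symbols and gene order came from a RefSeq table of assembly MpTak2_v7.1, which matched 17369 identifiers, 3088 of them with a symbol; its coordinates were not used. Sequences and coding lengths were not used here, so the planned protein, promoter and per-length comparisons were not made.

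The members, gene lists and markers were chosen with earlier results of these data known. Named genes are all members, the 3 nearest rows on each side, the 2 targeted genes, all MpCPT symbols, the 5 genes most like MpMTPSL2 and MpCPT5, and from each list up to 3 genes per direction called in both sets with the largest smaller fold change; others are said to be named after their values were seen. Replicates of a group differed beyond sampling noise (chi-square over its degrees of freedom 2.69 to 30.3), so none was a library deposited again. Intervals and floors cover counting error only.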

Additional observations from a re-analysis of the deposited data

Results flagged for a closer look

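By the test of the difference itself (set 2 minus set 1, log2 scale), the fold change differed for 2 members and the 2 rows just above the run. The differences were -1.78 for MpMTPSL2, -1.17 for Mp3g18520, -1.12 for Mp3g18530 and -0.43 for Mp3g18540 (edgeR adjusted p = 0.00407, 0.0055, 0.00666 and 0.0313). Farther below the run, Mp3g18370, at -0.35, and Mp3g18390, at 0.37, were also called (edgeR adjusted p = 0.0396 and 0.0154). These flanks went opposite ways and were named after their values were seen. Over all genes 23% were called in either direction. The difference of effects equals the double mutant difference minus the control difference, so it is not independent of the higher control levels in set 2. The call of Mp3g18540 was lost in 9 of 12 fits that left out 1 library. Allele and set cannot be told apart.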

How the results depend on the processing

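The calls between sets named for MpMTPSL2, MpCPT5, Mp3g18520, Mp3g18470 and Mp3g18480 held in all 17 alternatives (MpMTPSL2 difference -2.10 to -1.51 and Mp3g18520 -1.29 to -0.88 when a library was left out), while the difference of Mp3g18540 lost its call in 9 of 12. Estimates near 0 changed sign: the difference of Mp3g18460 (-0.00) was 0.01 with no filter, 0.00 with DESeq2, 0.04 with the replicate block and -0.15 to 0.31 without 1 library; the double mutant difference of Mp3g18520 (-0.02) was 0.02 with no filter and -0.10 to 0.10 without 1 library; that of Mp3g18530 (-0.07) was -0.24 to 0.13. With no filter, 15 terpene synthases rose in set 2 (9 in the fit reported); 3 isoprenoid genes fell in set 1 with no filter or in the fit of 12 (1 reported). Without 1 library, fallen isoprenoid genes in set 1 numbered 1 to 2 (2 without replicate 1 of the controls or replicate 3 of Mpez1-1), fallen terpene synthases in set 2 0 to 1, risen MpCPT genes in set 2 0 to 1, and antisense calls in set 1 231 to 526 (231 without replicate 2 of Mpez1-1; 362 with all).

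Replicate numbers did not pair the samples: deviations of same-numbered libraries correlated at 0.045, -0.003 and 0.1 in set 1 and at 0.074, 0.041 and 0.062 in set 2. With the number as a block, 3354 genes were higher and 3089 lower in set 1 and 2630 and 2305 in set 2, against 3349 and 3045 and 2602 and 2213 without it. MpERF13 lost its call under the block in set 2 (adjusted p = 0.0533) and under several other alternatives. The low control counts of Mp3g18480 and Mp3g18490 limit the precision of their fold changes.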
